A study of Mus musculus with 8 samples.

Results

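The genes described here are 10 genes of the MHC class I pathway, taken by symbol from a table of 24516 genes in cardiac macrophages: H2-K1, H2-D1, B2m, H2-T23, Tap1, Tap2, Tapbp, Psmb8, Psmb9 and Nlrc5. Their RNA was sequenced in 8 libraries of macrophages sorted from mouse hearts, 4 of endocardially derived cells (EcTM) and 4 of cells without that origin (non-EcTM). Both groups came from C57BL/6 mice at postnatal day 28 with the genotype Nfatc1Cre/+; Rosa26Tomato reporter/+, so the controls carry the same alleles, and the origin of a cell is read from whether a Cre named for Nfatc1, an endocardial gene, was active in its lineage. The libraries are E591, E592, E604 and E606 for EcTM and N591, N592, N604 and N606 for non-EcTM, and libraries of the same title number were treated as a pair. The labels do not say what the number stands for or whether libraries came from separate animals. The p-values therefore measure only the spread between these libraries that is left once number and group are fitted.

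MHC class I molecules display peptides from inside a cell to CD8 T cells and natural killer cells. The proteasome cuts proteins into peptides, the TAP transporter carries these into the endoplasmic reticulum, and tapasin holds TAP and the empty class I molecule together until a peptide binds. Each molecule is a heavy chain paired with beta-2 microglobulin. Interferon raises the whole pathway, in part through NLRC5, a transactivator that acts on class I promoters, and resident macrophages express it at rest.

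Of the 10 genes, 8 lie in the major histocompatibility complex on chromosome 17 of GRCm38, the assembly that mm10 names. In order of position by RefSeq they are Tapbp (from 33919478 to 33929290), H2-K1 (33996012 to 34000619), Psmb9 (34182030 to 34187330), Tap1 (34187556 to 34197225), Psmb8 (34198195 to 34201454), Tap2 (34204479 to 34216321), H2-D1 (35263094 to 35267497) and H2-T23 (36029977 to 36032701). B2m lies on chromosome 2 (122147687 to 122153082) and Nlrc5 on chromosome 8 (94434335 to 94527272).

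The promoters are shown because B2m and H2-T23 followed different patterns across the libraries, as described below, and because those of the classical heavy chains H2-K1 and H2-D1 are alike. RefSeq promoter windows of GRCm38.p6 were available for 8 of the 10 genes, without Tap2 and Nlrc5. Each run below ends at the base before the transcript start that RefSeq's window was built on, and reads 5′ to 3′ on the gene's strand. For genes with several windows the start farthest upstream was taken, and for H2-K1 this start still lies inside the outer bounds of the gene. Capitals mark any match, on either strand, to GAAANNGAA (interferon response element), TTCNNNGAA (gamma activated site), GGGNNTTCC (NF-kB), CCAAT (the Y box) or TGACG (a part of the X box).
H2-K1, chr17:34000348-34000597, minus strand: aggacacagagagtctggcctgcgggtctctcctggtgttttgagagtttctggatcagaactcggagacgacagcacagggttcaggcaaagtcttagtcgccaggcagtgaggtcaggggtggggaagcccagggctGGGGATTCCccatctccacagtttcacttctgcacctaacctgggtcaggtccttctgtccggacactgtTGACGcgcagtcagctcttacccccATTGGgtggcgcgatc
H2-D1, chr17:35262844-35263093, plus strand: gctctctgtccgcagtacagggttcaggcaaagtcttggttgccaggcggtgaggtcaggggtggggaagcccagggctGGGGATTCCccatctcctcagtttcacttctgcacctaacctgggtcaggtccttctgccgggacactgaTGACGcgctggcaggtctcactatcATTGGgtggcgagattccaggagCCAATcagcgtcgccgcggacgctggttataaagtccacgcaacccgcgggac
B2m, chr2:122147437-122147686, plus strand: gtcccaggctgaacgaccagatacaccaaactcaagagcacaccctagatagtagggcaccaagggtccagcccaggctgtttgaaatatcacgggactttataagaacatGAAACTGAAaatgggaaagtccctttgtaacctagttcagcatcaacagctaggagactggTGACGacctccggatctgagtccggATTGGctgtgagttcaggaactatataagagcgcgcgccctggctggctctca
H2-T23, chr17:36032702-36032951, minus strand: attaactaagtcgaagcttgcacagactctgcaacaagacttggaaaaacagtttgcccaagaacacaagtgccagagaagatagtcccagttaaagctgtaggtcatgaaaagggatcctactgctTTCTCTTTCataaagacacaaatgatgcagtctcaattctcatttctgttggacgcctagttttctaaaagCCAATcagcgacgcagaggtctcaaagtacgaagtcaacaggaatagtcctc
The stretch of 225 bases between the starts of Psmb9 and Tap1, chr17:34187331-34187555, plus strand: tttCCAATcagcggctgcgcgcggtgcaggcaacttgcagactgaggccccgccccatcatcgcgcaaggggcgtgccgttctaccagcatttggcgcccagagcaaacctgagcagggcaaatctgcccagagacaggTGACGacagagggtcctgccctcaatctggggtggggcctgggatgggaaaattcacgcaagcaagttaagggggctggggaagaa

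Over 239 aligned bases the 300-base windows of H2-K1 and H2-D1 were 88.3% identical, whereas H2-D1 and H2-T23 were 55.1% identical over 283 aligned bases. The NF-kB match GGGGATTCC stood in both classical heavy chain genes, at 111 bases before the start of H2-K1 and 171 before that of H2-D1, and in no other of the 8 windows of 300 bases, which reach 50 bases past the start. GGGNNTTCC was present in 5.82% of all 32817 RefSeq windows of 300 bases. The Y box letters stood in 7 of the 8 windows, all but Psmb8, against 37.4% of all windows, and TGACG in 5 of 8 against 20.8%. GAAANNGAA was found in B2m and H2-T23 only, against 8.55% of all windows, and TTCNNNGAA in Psmb8 only, against 8.29%. Psmb9 and Tap1 are transcribed away from each other from the printed stretch, so their windows share most bases and their matches are not independent. A match describes letters and does not show a bound site. Elements spelled otherwise than these patterns would be missed. The lack of a GAAANNGAA match in H2-K1 and H2-D1 therefore does not show that they lack an interferon response element.

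Which of the 10 genes can be measured in this table was set by its counts. Library totals ran from 2152425 to 2937464 counts. The 7 genes with 1 curated RefSeq transcript (H2-D1, B2m, H2-T23, Tap2, Psmb8, Psmb9 and Nlrc5) had total counts of 317 to 33435 over the 8 libraries, and all 7 passed the filter on low counts. The 3 genes with 2 curated transcripts did not. Tapbp, the gene of tapasin, had 0 counts in 8 of 8 libraries. A count of 0 still allows 3 counts in a library, or 1.02 to 1.39 CPM (counts relative to the library total).

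H2-K1, a classical heavy chain of C57BL/6 mice, had 10, 3, 0 and 0 counts in E591, E592, E604 and E606 and 0, 20, 4 and 1 in N591, N592, N604 and N606. Tap1, which encodes the TAP subunit that partners TAP2, had 7, 6, 17 and 0 counts in the EcTM libraries and 11, 1, 0 and 4 in the non-EcTM libraries in the same order. Neither gene had a level that could be compared between groups, and libraries with 0 counts occurred in both groups.

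These low counts had a parallel in 80 other genes of the pathway, taken from 6 lists of heavy chains, loading partners, proteasome subunits, cross-presentation genes and regulators. The 43 of them with 1 curated transcript had a median total of 1407 counts and 41 entered the test. The 37 with at least 2 had a median total of 36 counts, 11 of them were at 0 throughout, among them Canx, H2-Q6 and H2-Q7, and 16 entered the test. Over all protein-coding genes the contrast was much smaller. Many genes of that set had few or no counts whatever their transcript number, unlike the lists. That comparison therefore does not show whether the contrast is particular to the pathway. Genes outside the pathway with several curated transcripts were also at 0 throughout, among them Itgam with 2 and Pecam1 with 4. Adgre1, with 3, had 16683 counts. Median totals were 18 counts for 1 curated transcript, 7 for 2 and 7 for 3 or more, and 36.6%, 39.2% and 38.2% of these genes were at 0 throughout. Fcgrt, with 2 curated transcripts, had 19765 counts, so several transcripts did not go with low counts in every gene. The cause of the low counts was not tested. Heavy chain genes are near copies of each other, and no source used here states how a read matching several of them was assigned. Levels are therefore compared between libraries for 1 gene at a time and not between genes.

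**Figure D1:**
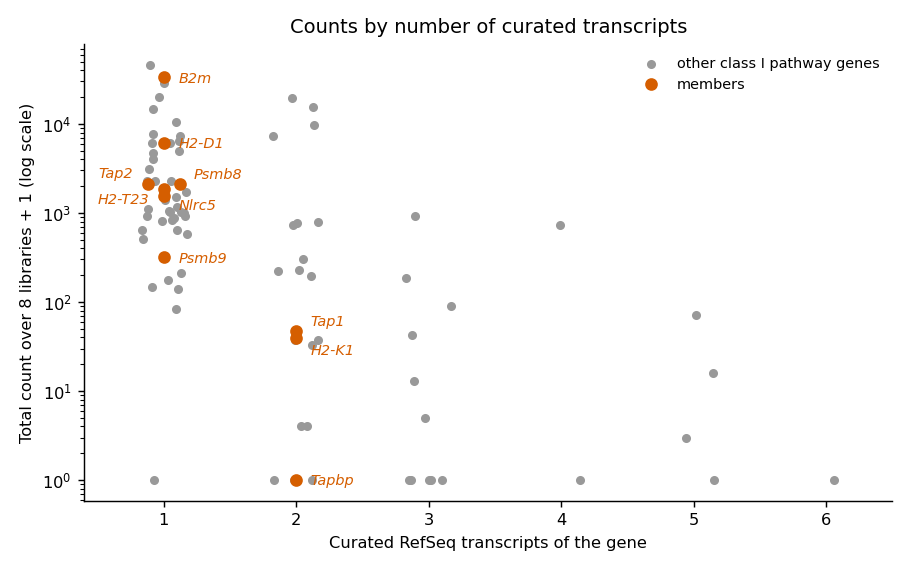
Total count over the 8 libraries plus 1 (log scale) against the number of curated RefSeq transcripts, for the 10 genes (orange) and 80 other genes of the class I pathway (grey, spread sideways for visibility). The 3 genes with 2 curated transcripts, Tap1, H2-K1 and Tapbp, lie at 46, 38 and 0 counts, below the 7 genes with 1 curated transcript.

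The study's comparison asks how endocardially derived macrophages differ from the other cardiac macrophages. No difference in class I genes was detected: 0 of the 7 testable genes passed the threshold in either direction, where 0.0130% of all 7667 tested genes did, a single gene, Itga9. The test was the quasi-likelihood F-test of edgeR with the pairing in the model, p-values were adjusted over all tested genes by the Benjamini-Hochberg method, and the threshold was 0.05. None of the 7 had an unadjusted p under 0.05, as 414 of all tested genes had. Their log2 fold changes, EcTM against non-EcTM, ran from -0.07 to 0.24 with adjusted p-values of 0.941 to 0.998. The median was 0.02 for these 7 and -0.01 for all tested genes. Levels below are CPM with library totals scaled by TMM factors.

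B2m, the light chain of every class I molecule, gave the most precise value. It stood at 1779, 1417, 2350 and 1587 CPM in E591, E592, E604 and E606 and at 1759, 1339, 2131 and 1457 CPM in N591, N592, N604 and N606. The groups overlapped, and within each number the EcTM library was the higher one, by a small margin. The EcTM mean was 1783 ± 406 CPM (SD, n = 4) and the non-EcTM mean was 1672 ± 353 CPM. The log2 fold change was 0.09 ± 0.06 (SE) with a 95% interval of -0.03 to 0.21, or 0.981-fold to 1.16-fold, and an adjusted p of 0.941. One direction in 4 of 4 pairs was shown by 1 of the 7 genes, B2m, and by 14.2% of all tested genes.

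H2-D1, the classical heavy chain that could be measured, stood at 302, 270, 393 and 284 CPM in the EcTM libraries and at 372, 286, 349 and 252 CPM in the non-EcTM libraries. EcTM was the higher library of the pairs E604/N604 and E606/N606 and the lower of the others, and the groups overlapped. The means were 312 ± 55.4 and 315 ± 55.3 CPM (SD, n = 4), and the log2 fold change was -0.01 ± 0.11 with a 95% interval of -0.23 to 0.21. As a fold, this interval ran from 0.854 to 1.15.

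H2-T23 encodes the heavy chain of Qa-1, a nonclassical molecule that presents leader peptides of other class I chains to natural killer cell receptors. It stood at 138, 100.1, 77.6 and 69.1 CPM in EcTM and at 147, 91.6, 78.1 and 65.7 CPM in non-EcTM. The 2 libraries of a number were close to each other, with pair log2 ratios of -0.09 to 0.13. The log2 fold change was 0.02 ± 0.17 with a 95% interval of -0.32 to 0.37.

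Tap2, the other TAP subunit, stood at 90.0, 103, 115 and 145 CPM in EcTM and at 116, 89.2, 127 and 88.8 CPM in non-EcTM. E606 was the highest library and N606 the lowest, and the pairs did not share a direction. The log2 fold change was 0.11 ± 0.18 with a 95% interval of -0.26 to 0.47.

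Psmb8 and Psmb9 encode catalytic subunits of the immunoproteasome, which take the place of the standard subunits PSMB5 and PSMB6. Psmb8 stood at 85.8, 101, 135 and 109 CPM in EcTM and at 108, 104, 122 and 100.01 CPM in non-EcTM, with a log2 fold change of -0.02 ± 0.16 and a 95% interval of -0.35 to 0.31. Psmb9, with the fewest counts of the 7 testable genes, stood at 16.2, 16.5, 24.6 and 7.50 CPM in EcTM and 20.7, 8.61, 22.2 and 15.2 CPM in non-EcTM. Its log2 fold change of -0.07 ± 0.44 had a 95% interval of -0.98 to 0.84, or 0.506-fold to 1.79-fold.

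Nlrc5, the transactivator, stood at 125, 62.6, 144 and 37.9 CPM in EcTM and at 65.1, 55.6, 109 and 59.4 CPM in non-EcTM. EcTM was the higher library in 3 of 4 pairs, all but E606/N606. The means were 92.4 ± 50.3 and 72.2 ± 24.6 CPM (SD, n = 4). The log2 fold change of 0.24 ± 0.21 was the highest of the 7, its 95% interval ran from -0.21 to 0.68, and its adjusted p was 0.964. Without E606 and N606 it was 0.51, and without E591 and N591 it was -0.00330. The lncRNA gene 9330175E14Rik overlaps Nlrc5 on the other strand, with a total of 154 counts against 1562 for Nlrc5, and whether the counting used strand is not given. Patl2 and A930015D03Rik, which overlap B2m and H2-T23 on the other strand, had 10 counts and 1 count.

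**Figure D2:**
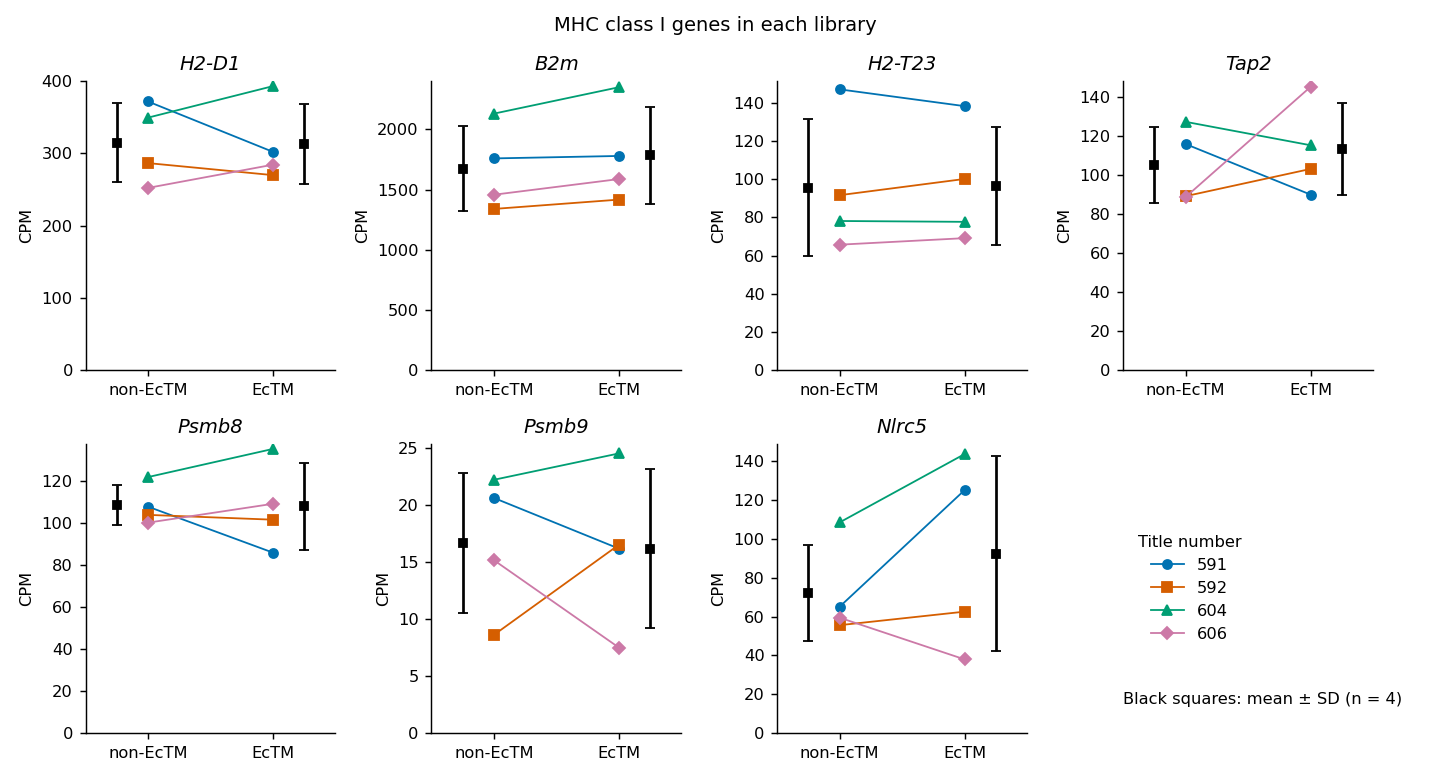
Expression (CPM, axes from 0) of the 7 testable genes, with 1 point per library, a line for each pair and squares in black showing mean ± SD of a group (n = 4). In B2m and H2-T23 the lines run nearly level and stay apart, so the numbers differ more than the groups. In Tap2 and Psmb9 the lines cross.

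The rest of the pathway gave the same count of 0. None of the 57 tested genes of the 6 other pathway lists passed the threshold between EcTM and non-EcTM. Values of genes named from here on did not pass unless a sentence says so. One direction in 4 of 4 pairs, given below for some of them, was shown by 14.2% of all tested genes. Among other class I heavy chains, 11 of 17 genes were tested and their median log2 fold change was 0.20. The smallest unadjusted p belonged to H2-Q2, a Qa-region heavy chain, whose EcTM mean was 46.0 ± 9.62 CPM against 33.0 ± 9.37 CPM (0.50 ± 0.28 on the log2 scale, adjusted p 0.931). The next was Mr1, whose product presents vitamin B metabolites to MAIT cells, at 0.88 ± 0.64. The neonatal Fc receptor chain Fcgrt, which also pairs with beta-2 microglobulin, was at 1016 ± 86.1 and 1011 ± 68.9 CPM, a log2 fold change of 0.01 ± 0.07.

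Of 11 peptide loading and trimming partners, 10 were in the table and 7 were tested, with a median log2 fold change of 0.03. The chaperone genes Calr and Pdia3, whose products sit in the loading complex with tapasin, had log2 fold changes of 0.03 ± 0.05 and 0.05 ± 0.07. The smallest unadjusted p-values of this list were 0.481 for Pdia3 and 0.516 for Tapbpl, the gene of the tapasin relative TAPBPR, at -0.21 ± 0.31.

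In the list of immunoproteasome and PA28 genes, all 5 were tested and their median log2 fold change was -0.25. The genes of the 2 chains of the PA28 activator, Psme1 and Psme2, were lower in EcTM in 4 of 4 pairs without passing. Psme1 stood at 213, 175, 194 and 162 CPM in E591, E592, E604 and E606 and at 264, 196, 269 and 171 CPM in N591, N592, N604 and N606. The groups overlapped, and the log2 fold change was -0.25 ± 0.12 with an unadjusted p of 0.0439 and an adjusted p of 0.907. Psme2, with 2 curated transcripts, had 1, 18, 37 and 0 counts in EcTM and 31, 29, 59 and 44 in non-EcTM, a fitted log2 fold change of -2.16 ± 0.80 and an adjusted p of 0.778. Psmb10, the third catalytic subunit of the immunoproteasome, had -0.30 ± 0.23.

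Its standard counterparts were close to 0 or imprecise: Psmb7 had 0.01 ± 0.30, Psmb6 had -0.22 ± 0.23 and Psmb5 had 0.02 ± 0.63. Over the 14 genes of the constitutive proteasome, 12 were tested with a median of 0.02. Psma6, an alpha ring subunit with 2 curated transcripts, was higher in EcTM in 4 of 4 pairs (log2 fold change 1.21 ± 0.46, adjusted p 0.866), and Psma1 had 0.24 ± 0.23.

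Of 10 cross-presentation genes, 8 were tested with a median log2 fold change of -0.11. Cybb, the NADPH oxidase chain that slows degradation in phagosomes, stood at 1573 ± 103 and 1431 ± 186 CPM in EcTM and non-EcTM (log2 fold change 0.14 ± 0.06, adjusted p 0.897). Wdfy4 was next, at 0.17 ± 0.08 and an adjusted p of 0.914. Both were higher in EcTM in 4 of 4 pairs.

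Of 24 class I regulators, 14 were tested with a median of -0.05. The interferon response factor gene Irf1 had -0.10 ± 0.24, and Rfx5, a subunit of the factor that binds the X box, had -0.36 ± 0.27 and was lower in EcTM in 4 of 4 pairs. Nfyb, a subunit of the factor that binds the Y box, at 0.45 ± 0.23, and the interferon receptor kinase gene Jak1, at 0.14 ± 0.07, were higher in EcTM in 4 of 4 pairs and had the smallest unadjusted p-values of this list, 0.0592 and 0.0643.

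**Figure D3:**
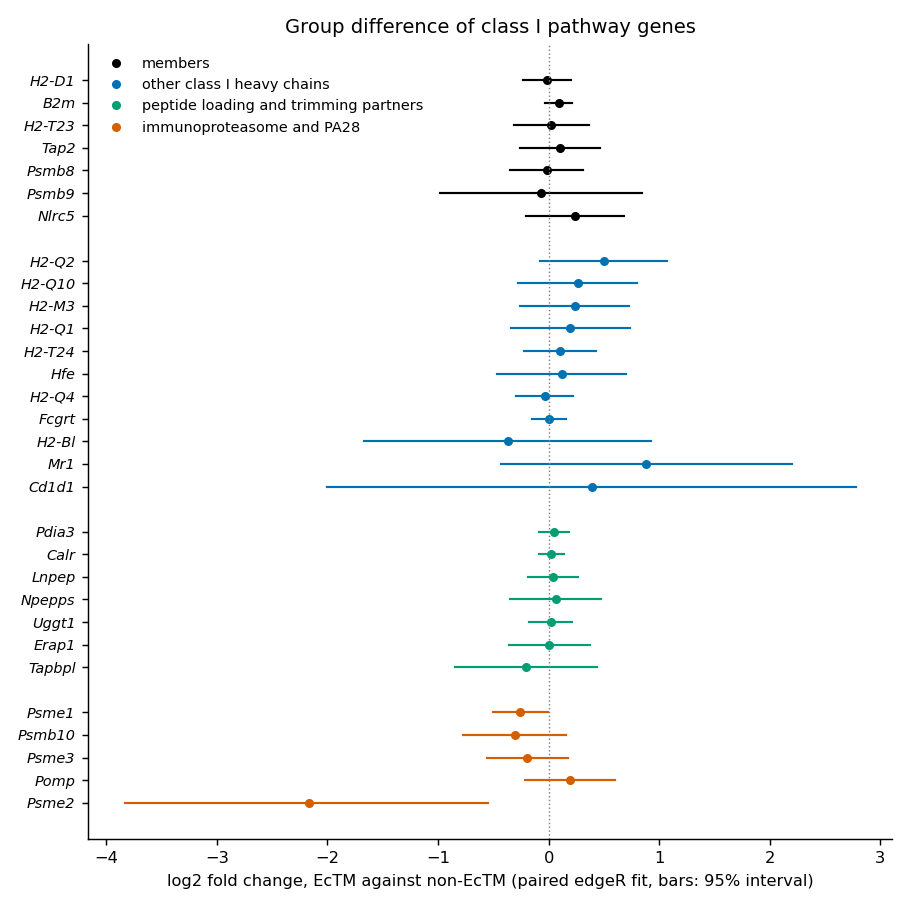
Log2 fold change, EcTM against non-EcTM, with its 95% interval in the paired edgeR fit, for the 7 testable genes and the tested genes of 3 pathway lists. The intervals of B2m and H2-D1 are among the shortest and lie around 0, at -0.03 to 0.21 and -0.23 to 0.21. None of the points passed after adjustment, and the intervals of Psme1 and Psme2 lie below 0.

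Some class I genes differed between title numbers. The difference among the 4 numbers, tested in the same edgeR fit, passed the threshold for 3 of the 7 genes, B2m, H2-T23 and Nlrc5, and for 3.04% of all tested genes. The distance from the lowest to the highest number in that fit is given here as a log2 span, and its median was 0.66 over all tested genes. The 3 genes did not share 1 order of the numbers.

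B2m was highest in E604 and N604 and lowest in E592 and N592, by ratios of 1.66 in EcTM and 1.59 in non-EcTM. Its span was 0.70 with an adjusted p of 1.07e-05. The distance between the numbers was larger than any of the 4 distances within a pair, whose log2 ratios ran from 0.02 to 0.14. Without E604 and N604 the span was 0.36 and the adjusted p 0.0628.

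H2-T23 was highest in E591 and N591 and lowest in E606 and N606, and the order of the 4 numbers was the same in both groups. The highest library was 2.00 times the lowest in EcTM and 2.24 times in non-EcTM, and the span was 1.08 with an adjusted p of 0.0224. Without E591 and N591 the span was 0.51 and the adjusted p 0.641, and without E606 and N606 they were 0.89 and 0.113. Endothelial transcripts were also highest in E591 and N591. The summed level of 12 endothelial markers, 5 of which were tested, was 339 CPM in E591 and 935 CPM in N591, against 43.0 to 238 CPM for the remaining EcTM libraries and 90.8 to 152 CPM for the remaining non-EcTM ones. E606 came next with 238 CPM, while its H2-T23 was the lowest of EcTM. Endothelial cells also express class I genes, and the part of these transcripts in the H2-T23 values was not tested.

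Nlrc5 was highest in E604 and N604, with E591 next at 125 CPM while N591 stood at 65.1 CPM. Its span was 1.33 with an adjusted p of 0.0256. This call was lost without E592 and N592 (adjusted p 0.0815), without E604 and N604 (0.409) and without E606 and N606 (0.105). Stat2, which carries the signal of type I interferon and was the 1 gene of 57 in the pathway lists to pass among numbers, was highest in E604 and N604 too. It stood at 103, 90.7, 179 and 83.7 CPM in E591, E592, E604 and E606 and at 135, 112, 168 and 77.2 CPM in N591, N592, N604 and N606, with a span of 1.11 and an adjusted p of 0.0139.

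The other 4 genes did not pass. H2-D1 had a span of 0.47 with an unadjusted p of 0.0114 and an adjusted p of 0.201. Its highest libraries were E604 and N591. Psmb8 and Psmb9 were highest in E604 and N604, with spans of 0.41 and 1.05 and adjusted p-values of 0.784 and 0.787. Tap2 had a span of 0.34 and an adjusted p of 0.887, and its highest libraries were E606 and N604.

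**Figure D4:**
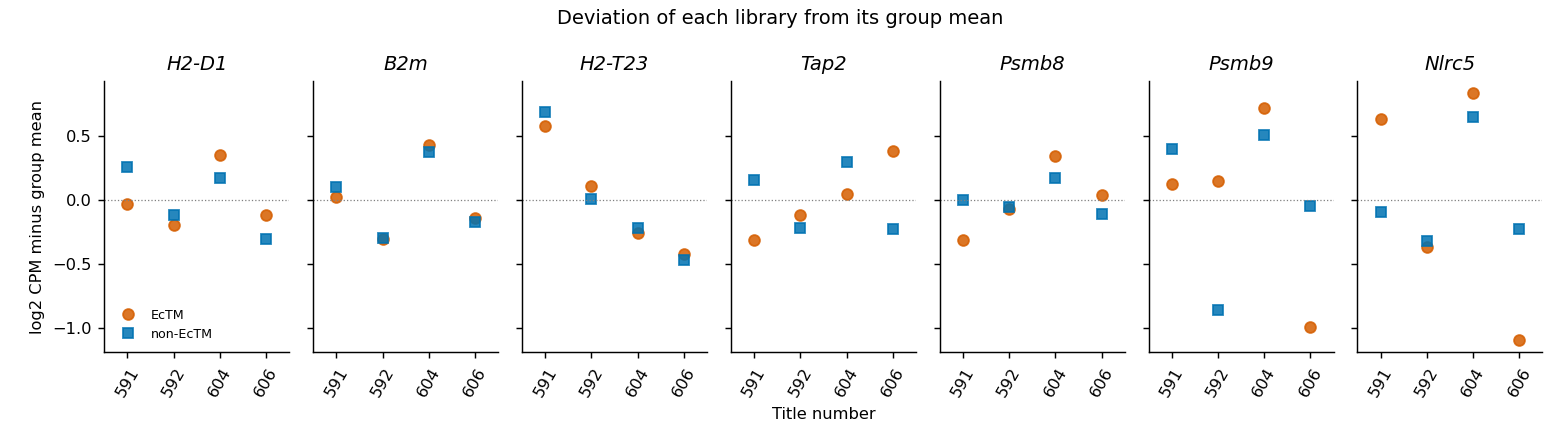
Log2 CPM of each library minus the mean of its group, by title number, for the 7 testable genes. The EcTM and non-EcTM points nearly coincide in B2m, highest in E604 and N604, and in H2-T23, highest in E591 and N591. The points of Tap2 and Psmb9 do not.

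Transcripts that mark sex went with the number. Xist was at 1 count in E592 and 8 in N592 but at 935 to 1682 elsewhere, and Ddx3y, a gene of the Y chromosome, at 260 and 307 but at 1 to 7 elsewhere. B2m was lowest in this pair, and without it its span was 0.54 with an adjusted p of 0.00114. With 1 such number, sex and number cannot be told apart.

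Most macrophage markers were high in all 8 libraries, but Itgam was listed at 0 and Ptprc stood at 10.3 to 29.7 CPM. The summed level of 10 macrophage markers was 17069 to 17462 CPM in EcTM and 15967 to 16936 CPM in non-EcTM. Each EcTM sum was above each non-EcTM sum, but the sum was not tested and consists mostly of Csf1r and Lyz2. The groups overlapped in both genes, as with Csf1r at 5790 CPM in E591 and 5840 CPM in N604. Of the other cell types, endothelial markers reached the highest sum, 935 CPM in N591, with Pecam1, Emcn, Tek and Npr3 at 0. Levels were lower in EcTM in 3 of 4 pairs for Kdr (log2 fold change -1.26 ± 0.41, adjusted p 0.697), Ptprb (-1.10 ± 0.36, adjusted p 0.738) and Flt1 (-1.27 ± 0.56, adjusted p 0.897). Tie1 was also lower in 3 of 4 pairs (-0.53 ± 0.52, adjusted p 0.964). Cdh5 was lower in 2 of 4 pairs and higher in the others (-0.24 ± 0.32, adjusted p 0.976). The part of these differences in the group values of the class I genes was not tested. Defining markers of lymphocytes were near or at 0: Cd8a, Ncr1, Klrb1c and Nkg7 were at 0 in 8 of 8 libraries, and Cd3d, Cd3e, Cd3g and Gzma had at most 7 counts in total each. Of these, Cd8a, Ncr1 and Klrb1c have 2 curated transcripts, as Itgam does, so their 0 counts say little about the cells present. The same limit applies to other markers at 0 with several curated transcripts, among them Pecam1, Emcn, Tek and Npr3. The 9 T and NK cell markers present summed to 26.4 to 60.4 CPM in EcTM and 37.6 to 58.4 CPM in non-EcTM, mostly Cd4, which macrophages can express. The 5 B cell markers summed to at most 6.71 CPM, the 6 neutrophil markers to at most 4.62 CPM and the 9 dendritic cell markers to 29.2 to 54.3 CPM. Fibroblast and cardiomyocyte markers summed to 22.3 to 188 CPM and 59.2 to 139 CPM, each highest in N591. In such bulk samples, fewer cells of a type and less RNA per cell cannot be told apart. Nfatc1 itself had 0 counts in 8 of 8 libraries, so it gave no check of the labels.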

How the data were processed

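RNA was measured in 8 libraries of sorted cardiac macrophages. Per the labels' protocols, RNA came from the QIAGEN RNeasy plus micro kit and libraries from a stranded SMARTer Pico kit for total RNA. The submitters' processing notes name bcl2fastq 2.17, TopHat, DESeq2, R 3.2 and the build mm10. Which program counted the reads, on which annotation and with which strand setting, is not stated in the sources used here. As deposited by the authors, the table holds raw counts for each gene and library. The authors also deposited log2 values, under a header that says CPM, which served here as an alternative only.

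Columns were matched to samples by title. Gene positions and curated transcript numbers come from the RefSeq annotation of GRCm38.p6 (24447 of 24516 genes matched by Entrez number). Genes were kept with filterByExpr, which left 7667 genes with 99.3% of the counts. The quasi-likelihood test of edgeR 4.0.16 (R 4.3.3, TMM, Benjamini-Hochberg over all tested genes, threshold 0.05) compared the groups with the title number as a block, and the numbers in the same fit. The 95% intervals use its standard errors and cover the spread between libraries that is left once number and group are fitted. In this fit the spread of each gene is moderated towards that of the other tested genes. Intervals and p-values of a gene therefore rest on more than its own values in the 8 libraries.

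The pairing comes from the title numbers. Deviations from the group means correlated at 0.12 to 0.19 across genes within the 4 pairs and at -0.13 to 0.05 otherwise. Genes are not independent replicates.

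The 10 genes, the gene lists, the motifs and the paired design were chosen with earlier results of these data known. Named genes are the 10 members and, of each pathway list, up to 4 genes that passed in either comparison, or else the 2 with the smallest unadjusted p between groups, plus Psmb5, Psmb6, Psmb7, Psmb10, Irf1 and Rfx5. Another gene the rule names is not reported here. Itga9, Nfyb, Jak1, Kdr, Ptprb, Flt1, Tie1, Cdh5, Ptprc, Itgam, Pecam1, Adgre1, Fcgrt, Calr, Canx, H2-Q6, H2-Q7 and the macrophage markers of the closing observations were chosen after seeing their values. Simulated data with known changes were used to test the fitting code. Alternatives used DESeq2 1.42.0 and limma 3.58.1. Figures used matplotlib 3.10.9 (Python 3.11.15).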

Additional observations from a re-analysis of the deposited data

How the results depend on the processing

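None of the 7 genes passed the threshold between EcTM and non-EcTM in any of the 13 alternatives. In DESeq2, Psmb9 had no adjusted p for this comparison, so it was not judged there. The 3 genes that differed among numbers passed in each of the 8 alternatives that kept all 4 pairs. In all alternatives that kept 4 pairs (9 for the groups), the group fold changes kept their sign. With 1 pair left out at a time, the range of the log2 fold change was -0.0765 to 0.0871 for H2-D1, -0.00728 to 0.0657 for H2-T23, -0.10 to 0.26 for Tap2, -0.0779 to 0.0823 for Psmb8, -0.39 to 0.22 for Psmb9, -0.00330 to 0.51 for Nlrc5 and 0.07 to 0.12 for B2m, so that B2m alone of the 7 kept its sign in all 4. The number of the 7 called among numbers was then 1 to 2, and the spans ran from 0.36 to 0.70 for B2m, 0.51 to 1.09 for H2-T23 and 0.92 to 1.37 for Nlrc5.

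Over all tested genes, 1 was called higher and 0 lower in EcTM. With no replicate block, against the paired fit, 0 were called higher. Genes called higher were 5 with no filter, 21 in DESeq2, 15 in limma-voom, 2 with limma on the deposited log2 values and 0 among genes with 1 curated transcript. Called lower were 5 with no filter, 5 in DESeq2, 4 in limma-voom and 0 to 1 with a pair left out. Among numbers 233 genes were called, 350 with no filter, 442 in DESeq2 and 146 to 179 with a pair left out. The cause of these differences was not tested. The low counts of H2-K1, Tap1 and Tapbp limit what can be said of these genes.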

Other observations

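Some macrophage markers also differed among title numbers. Of the 9 tested markers, 3 passed that comparison, against 3.04% of all tested genes, and 0 passed between EcTM and non-EcTM, against 0.0130%. Fcgr1, the high-affinity IgG receptor gene, which interferon can induce, stood at 238, 173, 358 and 154 CPM in E591, E592, E604 and E606 and at 265, 189, 310 and 193 CPM in N591, N592, N604 and N606. It was highest in E604 and N604, as B2m, Nlrc5 and Stat2 were, with a log2 span of 0.95 and an edgeR adjusted p of 9.28e-04. Lyz2, the lysozyme gene, ran the other way, lowest in E604 and N604 at 5263 and 5104 CPM and highest in E592 and N592 at 6353 and 6564 CPM, with a span of 0.32 and an adjusted p of 0.00551. Cx3cr1, the fractalkine receptor gene, was highest in E604 and N604, at 1345 and 1424 CPM, with a span of 0.49 and an adjusted p of 0.00644. Csf1r, which encodes the receptor for the main macrophage growth factor, had a span of 0.06 and an adjusted p of 0.958.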
